A study of Mus musculus with 8 samples.

Results

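The LIF, STAT3 and SOCS axis was followed as 10 genes of the 20972 gene symbols that the array carries. They were chosen by name, through the RefSeq accession of their probes: the cytokine gene Lif, the receptor genes Lifr and Il6st, the transcription factor gene Stat3, the feedback inhibitor genes Socs2 and Socs3, and the target genes Pim1, Pim3, Spp1 and Bcl3. RNA from mouse embryonic stem cells was hybridised to 8 single-colour arrays, 2 for each of 4 groups. Every culture, the untreated one included, grew with LIF and with PD173074 at 250 nM, which blocks FGF receptor kinases. Compared were untreated cells, cells at 8 h of 250 nM 4OHT (4-hydroxytamoxifen), cells at 10 h of 4OHT, and cells that had 8 h of 4OHT followed by 2 h of 1 µM PD0325901. The last group is called inhibited cells here, since PD0325901 blocks MEK, the kinase that activates ERK. The labels do not say which protein 4OHT acts on in these cells, name no cell line or clone, and do not tell whether 4OHT remained during the inhibition.

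LIF binds the receptor chain LIFR, which pairs with gp130, the product of Il6st. JAK kinases bound to the receptor then phosphorylate STAT3, which enters the nucleus and switches on genes that hold mouse embryonic stem cells in the naive state. Among the genes it induces are Socs3, whose product binds gp130 and blocks the JAKs, and the Pim kinase genes. The same receptor also activates ERK, through the phosphatase SHP2.

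Values are log2 of the processed signal over the array's 75th percentile, and differences are between group means ± the standard error of a limma fit over all 8 arrays, with Benjamini-Hochberg adjusted p and a threshold of 0.05. The precision is limited by 2 arrays a group. In replicate 1, 62.2% to 63.7% of the non-control spots were well above background, and in replicate 2 it was 51.0% to 53.0%. The design text calls the replicates biological without naming separate cultures, so the p-values cover only the spread between arrays, which may be technical. Less RNA per cell and fewer cells that carry it cannot be told apart in such bulk samples.

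All 10 stem cell markers, Pou5f1 and Sox2 among them, were well above background on every array, but they were not level. By log2 difference from untreated cells at 4OHT 8h, Nanog (-2.59) and Fgf4 (-1.64) fell, Utf1 (0.93) and Dppa4 (0.95) rose, and the other 6 were not called. In inhibited cells against 4OHT 10h, Nanog (1.66) and Fgf4 (1.32) rose, and Sox2, Utf1 and Dppa4 fell. Summed over 8 trophoblast markers, the signal was 15.8 to 18.3 times the 75th percentile in untreated cells, 36.2 to 42.1 at 4OHT 8h, 50.4 to 63.9 at 4OHT 10h and 43.2 to 45.5 in inhibited cells. Krt18 made up 26.3 of 36.2 in replicate 1 of 4OHT 8h. Of the 7 trophoblast markers tested, 4 rose at 4OHT 8h (Cdx2, Eomes, Hand1 and Krt18), Tfap2c fell (-1.76), and Gata3 (1.15) and Krt8 (-0.22) were not called. For 10 fibroblast markers the sums were 2.49 to 3.57, 18.6 to 38.1, 20.1 to 41.8 and 14.3 to 25.7 in the same order of groups. Thy1 alone made up 36.9 of 38.1 in replicate 1 of 4OHT 8h. Thy1 and Twist1 rose at 4OHT 8h, Col1a1 (-0.27), Col1a2 (-0.36) and Fbn1 (-0.57) were not called, and Col3a1, Lum, Dcn, Postn and Prrx1 were not well above background on both arrays of any group. The sums for 12 primitive endoderm markers went with the replicate, at 94.8 to 128 in replicate 1 and 61.2 to 76.3 in replicate 2. Within each replicate the sum was highest in inhibited cells (128 and 76.3). Lama1 made up 61.3 and Lamb1 25.1 of 94.8 in replicate 1 of untreated cells. Of the 12 markers, 1 was called higher and 0 lower at 4OHT 8h. The part of these markers in the results that follow was not tested.

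The receptor and STAT3 transcripts themselves were not called in either comparison of 4OHT with untreated cells, while the genes downstream of them parted. Socs2 and Pim1 rose and Spp1 fell at 4OHT 8h, so that 3 of the 9 tested genes were called, against 21.7% of all genes tested (10.3% higher and 11.5% lower). At 4OHT 10h these were joined by Pim3, which rose, and Socs3, which fell, which made 5 of 9 against 27.9% of all genes (13.1% higher and 14.8% lower). In inhibited cells against 4OHT 10h, 6 of 9 were called against 6.12% of all genes (3.25% higher and 2.87% lower): Socs2, Pim1 and Pim3 fell, and Socs3, Spp1 and Il6st rose. Against the 4OHT 8h cells, the start of the inhibition, 4 of 9 were called (6.52% of all genes, 3.41% higher and 3.11% lower), with Socs2, Pim1 and Pim3 lower and Il6st higher. Against untreated cells, 4 of 9 were called as well (15.8% of all genes, 7.05% higher and 8.79% lower), with Socs2 and Il6st higher and Pim1 and Spp1 lower. The genes were chosen with earlier results of these data known, so these counts are not those of an unselected set. All 9 were well above background on every array, while all genes here means 22693 features, 14498 of them with a symbol. The comparisons share groups of arrays and one estimate of the spread, so their counts are not independent. Arrays of 2 groups often lay apart: for 63.7% of all genes at 4OHT 8h against untreated cells and for 68.7% at 4OHT 10h. For inhibited cells the share was 52.2% against 4OHT 10h, 52.6% against 4OHT 8h and 60.3% against untreated cells. Of the 9 tested genes 6 lay apart in each comparison but the last, where 7 did. Arrays said to lie apart below therefore carry no weight of their own.

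The replicate number, which is also the row of the slide, raised the count at 4OHT 8h to 5 of 9 when it was fitted as a block, by adding Pim3 and Bcl3. With the block the count was 6 of 9 at 4OHT 10h, and in inhibited cells 7 of 9 against 4OHT 10h, 6 of 9 against 4OHT 8h and 6 of 9 against untreated cells. Without the block, the 6 calls in inhibited cells against 4OHT 10h came down to 3 without 4OHT 10h replicate 1, and to 2 (Socs2 and Pim1) without 4OHT 10h replicate 2, without inhibited replicate 1 or without inhibited replicate 2. The 5 calls at 4OHT 10h came down to 3 without untreated replicate 1, untreated replicate 2 or 4OHT 10h replicate 2. The 4 calls against 4OHT 8h came down to 2 without either 4OHT 8h replicate or either inhibited replicate, and the 4 against untreated cells to 2 without untreated replicate 2.

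**Figure D1:**
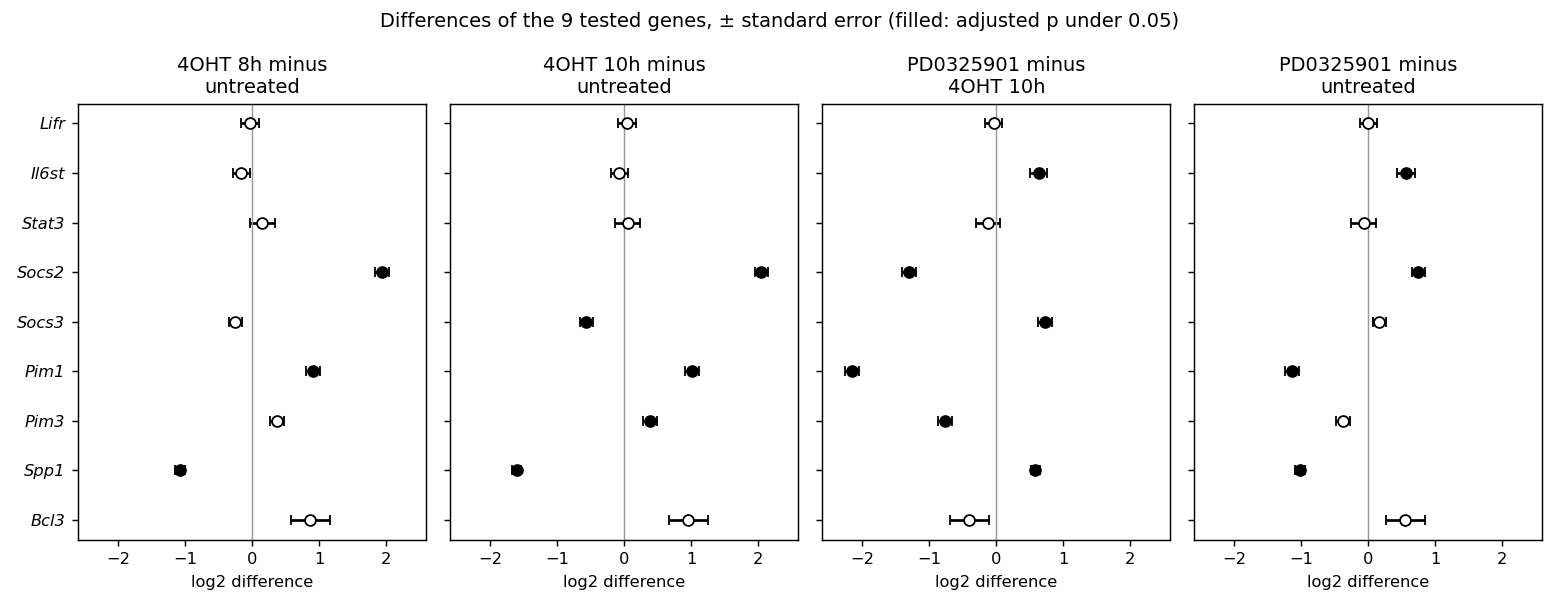
Log2 differences (horizontal axis) of the 9 tested genes of the axis in 4 comparisons, one panel each, with bars for the standard error of the fit and filled points for adjusted p under 0.05. Lifr and Stat3 stayed near 0 in all 4 panels, while Pim1 lay at 0.91 and 1.01 in the panels for 4OHT and at -2.15 and -1.14 in those for inhibited cells.

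Lif itself was near the background of the array. Its only probe, A_66_P134488, gave processed signals of 7.54 and 7.10 in untreated cells, 6.15 and 5.56 at 4OHT 8h, 9.21 and 6.65 at 4OHT 10h, and 11.2 and 5.17 in inhibited cells (replicate 1 and 2). It was well above background on 1 array of 4OHT 10h and on 1 of inhibited cells, both of replicate 1, and on no other array. The lowest signals that counted as well above background were 6.68 to 9.58 in replicate 1 and 14.8 to 20.0 in replicate 2, above each signal of Lif in replicate 2. The gene was therefore left out of the tests, and no fold is given.

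Lifr, which encodes the chain that binds LIF, varied little. Its brightest probe stood at 3.20 and 3.03 in untreated cells, 3.13 and 3.03 at 4OHT 8h and 3.20 and 3.11 at 4OHT 10h. In inhibited cells it stood at 3.27 and 2.96, against the values just given for 4OHT 10h. The 4 groups overlapped. The difference was -0.03 ± 0.13 for 4OHT 8h against untreated cells (95% interval -0.36 to 0.29, adjusted p = 0.879) and -0.04 ± 0.13 for inhibited cells against 4OHT 10h (-0.36 to 0.28, adjusted p = 0.894).

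Il6st, which encodes the signal-transducing chain gp130, was highest in inhibited cells. Its log2 signals were 2.16 and 1.95 in untreated cells, 2.02 and 1.77 at 4OHT 8h, and 2.07 and 1.90 at 4OHT 10h, 3 groups that overlapped. The inhibited cells gave 2.67 and 2.57, above all 6 other arrays. The rise was 0.63 ± 0.13 or 1.55-fold against 4OHT 10h (adjusted p = 0.0492), 0.73 ± 0.13 against 4OHT 8h (0.032) and 0.56 ± 0.13 against untreated cells (0.0394). At 4OHT 8h against untreated cells the gene was not called (-0.16 ± 0.13, adjusted p = 0.415).

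The calls of Il6st stood close to the threshold, and 12, 11 and 11 of 17 alternative settings ended them in these 3 comparisons, all with the same sign. Against 4OHT 10h the adjusted p was 0.0705 without untreated replicate 1 or untreated replicate 2, 0.0668 without 4OHT 8h replicate 1 or 4OHT 8h replicate 2, 0.114 without 4OHT 10h replicate 1, 0.226 without 4OHT 10h replicate 2, 0.185 without inhibited replicate 1 and 0.144 without inhibited replicate 2. With the replicate block it was 0.00855, and centred on the array median 0.129. Against 4OHT 8h it was 0.0515 to 0.144, and against untreated cells 0.051 to 0.146, with each of the 8 arrays left out in turn.

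Stat3, the transcription factor at the centre of the pathway, was called in no comparison. The log2 signals of its 10-spot probe A_51_P201480 were 3.60 and 3.36 in untreated cells, 3.80 and 3.47 at 4OHT 8h and 3.69 and 3.37 at 4OHT 10h, and they were 3.54 and 3.28 in inhibited cells. In all 4 groups replicate 1 was the higher, by 0.24, 0.33, 0.32 and 0.27 in the same order, and the groups overlapped. The difference was 0.15 ± 0.18 at 4OHT 8h against untreated cells (95% interval -0.30 to 0.60, adjusted p = 0.603) and -0.12 ± 0.18 in inhibited cells against 4OHT 10h (-0.57 to 0.33, adjusted p = 0.756). With the replicate block these p-values were 0.116 and 0.251.

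**Figure D2:**
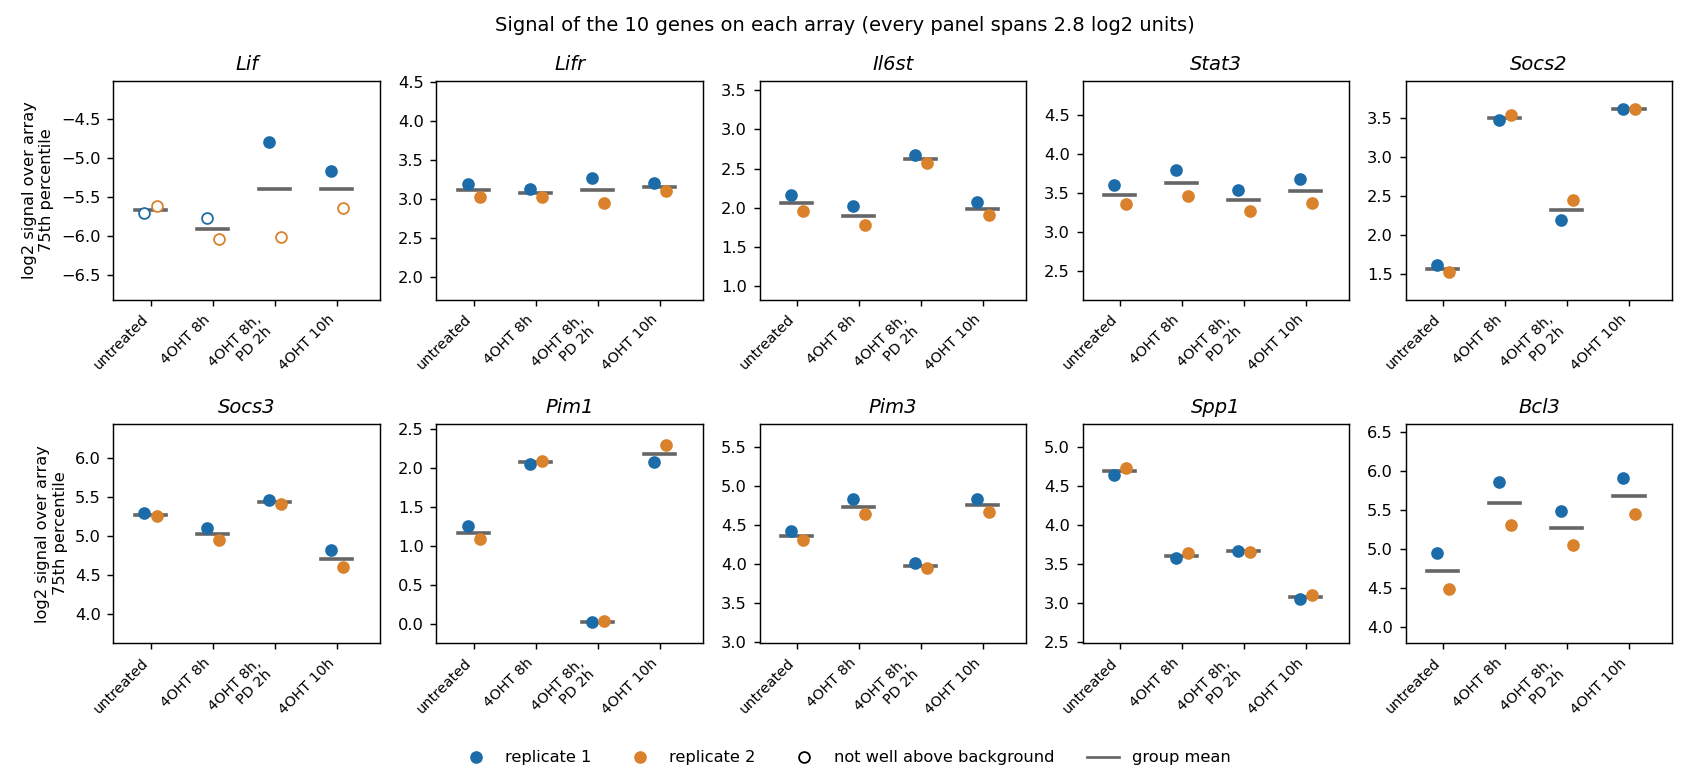
Log2 signal over the array's 75th percentile (vertical axis) of the 10 genes on each of the 8 arrays, with replicate 1 in blue, replicate 2 in orange, open points where the probe was not well above background, and a grey line at each group mean. Socs2 and Pim1 were high in both 4OHT groups, Socs3 and Il6st were highest in inhibited cells, and Bcl3 and Stat3 were higher in replicate 1 in every group.

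The SOCS genes encode inhibitors that bind cytokine receptors or JAKs through an SH2 domain, and the pair in this set went opposite ways. Socs2, best known as a brake on growth hormone signalling, stood at 1.61 and 1.53 in untreated cells, 3.47 and 3.55 at 4OHT 8h and 3.62 and 3.62 at 4OHT 10h. Both 4OHT groups lay far above the untreated arrays. It rose by 1.94 ± 0.10 or 3.83-fold at 4OHT 8h (adjusted p = 0.000404) and by 2.05 ± 0.10 or 4.14-fold at 4OHT 10h (0.000279).

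After the inhibitor Socs2 stood at 2.19 and 2.45, against 3.62 and 3.62 at 4OHT 10h, a fall of 2.46-fold (-1.30 ± 0.10, adjusted p = 0.00351). The inhibited arrays thus lay between those of 4OHT and those of untreated cells. They were still 1.68-fold above untreated cells (0.75 ± 0.10, adjusted p = 0.00991, but 0.0539 without untreated replicate 2 and 0.0583 in a fit of these groups alone). Against 4OHT 8h the fall of Socs2 was -1.19 ± 0.10 (adjusted p = 0.00464, but 0.0537 in a fit of these groups alone).

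Socs3, the feedback inhibitor of gp130 signalling, was lowest at 4OHT 10h. Its log2 signals were 5.29 and 5.26 in untreated cells, 5.10 and 4.95 at 4OHT 8h, and 4.82 and 4.60 at 4OHT 10h. No array of one of these groups overlapped with those of another. Against untreated cells, 63.7% (4OHT 8h) and 68.7% (4OHT 10h) of all genes were apart in this way. The difference from untreated cells was -0.25 ± 0.10 at 4OHT 8h, which was not called (adjusted p = 0.142, and 0.0577 with the replicate block), and the gene fell by 0.57 ± 0.10 on the log2 scale, 1.48-fold, at 4OHT 10h (adjusted p = 0.0122). That call was lost centred on the array median (-0.38, adjusted p = 0.0951), a setting that moves the median of all genes by 0.19 in this comparison. It was also lost without untreated replicate 1 (0.0596), untreated replicate 2 (0.0504) or 4OHT 10h replicate 2 (0.0603), without the filter on dim probes (0.0513) and in a fit of these groups alone (0.0504).

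In inhibited cells Socs3 reached 5.47 and 5.41, against 4.82 and 4.60 at 4OHT 10h. It rose by 0.73 ± 0.10 or 1.66-fold (adjusted p = 0.0178, or 0.00834 with the replicate block). The adjusted p was 0.0864 without 4OHT 10h replicate 2, 0.0969 without inhibited replicate 1, 0.0818 without inhibited replicate 2 0.0602 centred on the array median, 0.0856 without the filter on dim probes and 0.0952 in a fit of these groups alone. The difference from 4OHT 8h was 0.42 ± 0.10 (adjusted p = 0.0783, and 0.0288 with the replicate block). Against untreated cells the inhibited arrays were the higher by 0.17 ± 0.10, which was not called (adjusted p = 0.319). The order of the group means was thus inhibited cells, untreated cells, 4OHT 8h and 4OHT 10h, with no call between the first and second or between the next pair, and the difference between 4OHT 10h and 4OHT 8h was not tested.

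The 250 bases before the RefSeq start of Socs3 are shown because Socs3 is the feedback gene of the pathway that moved opposite to the other SOCS gene, with those of Pim1, which fell most in inhibited cells, and Spp1, which fell with 4OHT. Sequences are from RefSeq, build GRCm38.p6, on the strand of the gene, and capitals mark a match to a searched motif. The motifs were TTCNNNGAA for STAT factors, TGANTCA for AP-1, CCGGAAG for ETS factors and GCGTGGG for EGR factors, on both strands.
Socs3, chr11:117969367-117969616, minus strand: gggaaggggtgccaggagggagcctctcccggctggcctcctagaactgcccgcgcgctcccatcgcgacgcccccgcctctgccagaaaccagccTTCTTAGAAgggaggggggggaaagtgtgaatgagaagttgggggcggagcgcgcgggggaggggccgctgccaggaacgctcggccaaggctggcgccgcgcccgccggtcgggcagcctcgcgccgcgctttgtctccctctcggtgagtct
Pim1, chr17:29490535-29490784, plus strand: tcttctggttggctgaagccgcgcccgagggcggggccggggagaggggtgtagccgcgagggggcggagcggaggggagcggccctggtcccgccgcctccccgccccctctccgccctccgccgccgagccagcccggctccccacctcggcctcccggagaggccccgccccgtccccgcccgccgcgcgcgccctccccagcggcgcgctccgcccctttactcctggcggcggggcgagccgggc
Spp1, chr5:104434861-104435110, plus strand: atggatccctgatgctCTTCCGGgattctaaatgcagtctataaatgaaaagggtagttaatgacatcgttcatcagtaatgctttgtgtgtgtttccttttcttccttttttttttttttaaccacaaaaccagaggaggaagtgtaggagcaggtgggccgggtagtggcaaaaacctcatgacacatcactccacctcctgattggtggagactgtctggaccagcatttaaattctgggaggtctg

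RefSeq promoters were matched for 9 of the 10 genes, all but Socs2, with 12 promoters in all. The STAT letters were found 154 to 146 bases before the start of Socs3 and in no other of the 12, and 7.02% of all 32851 promoters of the table hold them in the same window. Pim1 and Spp1 have 2 promoters each, and 1 of each is shown above. The ETS letters, on the other strand, were in the Spp1 promoter shown, 234 to 228 bases before its start (6.91% of all promoters). The other Spp1 promoter did not hold them. The AP-1 letters were found only in Lif, 228 to 222 bases before its start (6.75%), and the EGR letters in none of the 12 (4.3%). Pim1 held none of the 4 motifs in either of its promoters. A match describes the letters of this window and is not a measured binding site.

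The Pim genes encode serine/threonine kinases that favour survival and growth, and both in this set rose at 4OHT 10h and fell after the inhibitor. Pim1 stood at 1.25 and 1.09 in untreated cells, 2.05 and 2.09 at 4OHT 8h and 2.07 and 2.29 at 4OHT 10h. It rose by 0.91 ± 0.10 or 1.87-fold at 4OHT 8h (adjusted p = 0.00348) and by 1.01 ± 0.10 or 2.02-fold at 4OHT 10h (0.00198). In inhibited cells the signal was 0.03 and 0.04, the lowest of all groups, against 2.07 and 2.29 at 4OHT 10h.

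Pim1 thus fell 4.44-fold against 4OHT 10h (-2.15 ± 0.10, adjusted p = 0.00123) and 4.12-fold against 4OHT 8h (-2.04 ± 0.10, 0.00125). It also passed below the untreated level, by 1.14 ± 0.10 on the log2 scale or 2.20-fold (adjusted p = 0.00316). All 5 comparisons of Pim1 kept their call under the 17 alternative settings, with the difference from 4OHT 10h between -2.26 and -1.98. No other gene of the axis was called both higher with 4OHT than in untreated cells and lower than in untreated cells after the inhibitor, except Pim3 with the replicate block or with the trended robust prior.

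Pim3 gave 4.42 and 4.30 in untreated cells, 4.82 and 4.64 at 4OHT 8h and 4.83 and 4.66 at 4OHT 10h. The change was smaller than that of Pim1, at 0.37 ± 0.10 for 4OHT 8h (adjusted p = 0.0549, and 0.0118 with the replicate block). It rose by 0.39 ± 0.10 or 1.31-fold at 4OHT 10h (0.0408). That call was lost under 12 of 17 alternatives, among them each array left out: at 0.0861 and 0.149 without untreated replicate 1 and 2, 0.0526 without either 4OHT 8h replicate, 0.168 and 0.0747 without 4OHT 10h replicate 1 and 2, and 0.0649 without either inhibited replicate. Both 4OHT groups lay above the untreated arrays, and inhibited cells, at 4.01 and 3.94, below all 6 other arrays.

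Against 4OHT 10h Pim3 fell 1.71-fold (-0.77 ± 0.10, adjusted p = 0.0161). The adjusted p was 0.079 and 0.0606 without 4OHT 10h replicate 1 and 2, and 0.0775 and 0.0866 without inhibited replicate 1 and 2, 0.0787 without the filter on dim probes and 0.0747 in a fit of these groups alone. Against 4OHT 8h it fell by 0.75 ± 0.10 on the log2 scale (adjusted p = 0.0161), a call lost without 4OHT 8h replicate 1 (0.079) or 2 (0.0555), inhibited replicate 1 (0.0731) or 2 (0.0869), the filter on dim probes (0.0787) or the other groups (0.0768). The difference from untreated cells was -0.38 ± 0.10, with adjusted p = 0.0617 and, with the replicate block, 0.0144.

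Spp1 encodes the secreted glycoprotein osteopontin. It gave 4.64 and 4.73 in untreated cells, 3.58 and 3.64 at 4OHT 8h and 3.05 and 3.11 at 4OHT 10h, so that the arrays of each time were apart from those of the others. It fell 2.11-fold at 4OHT 8h (-1.08 ± 0.07, adjusted p = 0.000721) and 3.05-fold at 4OHT 10h (-1.61 ± 0.07, 0.000201). Inhibited cells had 3.67 and 3.66, against 3.05 and 3.11 at 4OHT 10h, and the gene rose by 0.58 ± 0.07 or 1.50-fold (adjusted p = 0.0119).

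Against 4OHT 8h the inhibited cells did not differ by a called amount in Spp1 (0.05 ± 0.07, 95% interval -0.12 to 0.23, adjusted p = 0.718). They were 2.03-fold below untreated cells (-1.02 ± 0.07, adjusted p = 0.00158). The call against 4OHT 10h was lost without 4OHT 10h replicate 1 (adjusted p = 0.071), 4OHT 10h replicate 2 (0.0711), inhibited replicate 1 (0.0679) or inhibited replicate 2 (0.0643), without the filter on dim probes (0.0744) and in a fit of these groups alone (0.0794).

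Bcl3 encodes a nuclear protein of the IκB family that acts as a co-regulator of NF-κB subunits, and LIF and STAT3 are known to induce it in stem cells. Its log2 signals were 4.94 and 4.49 in untreated cells, 5.86 and 5.31 at 4OHT 8h and 5.90 and 5.44 at 4OHT 10h. In inhibited cells they were 5.48 and 5.05. Replicate 1 was the higher in each group, by 0.43 to 0.55. The same direction held in each group for Lifr, Il6st, Stat3, Socs3 and Pim3, and for the summed primitive endoderm markers. The arrays of both 4OHT groups lay above the untreated ones, where 63.7% (4OHT 8h) and 68.7% (4OHT 10h) of all genes were apart.

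The differences of Bcl3 were not called: 0.87 ± 0.29 at 4OHT 8h (adjusted p = 0.0895), 0.96 ± 0.29 at 4OHT 10h (0.0576) and, for inhibited cells, -0.40 ± 0.29 against 4OHT 10h (0.485) and 0.55 ± 0.29 against untreated cells (0.244). Within replicate 1 and replicate 2 the difference at 4OHT 8h was 0.91 and 0.82, that at 4OHT 10h 0.96 and 0.95, and that of inhibited cells from 4OHT 10h -0.42 and -0.39. With the replicate block each was called, with adjusted p of 0.00123, 0.000787, 0.0215 and 0.00571 in the order of the 4 differences above. The difference of inhibited cells from 4OHT 8h was -0.31 ± 0.29 (adjusted p = 0.587, and 0.0369 with the replicate block).

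Of the 10 genes, 3 had more than 1 probe. The 3 probes of Socs2 gave 1.94 ± 0.10, 2.00 ± 0.11 and 1.91 ± 0.09 at 4OHT 8h against untreated cells, and -1.30 ± 0.10, -1.32 ± 0.11 and -1.28 ± 0.09 in inhibited cells against 4OHT 10h. A second Stat3 probe gave 0.22 ± 0.26 and -0.08 ± 0.26. The dimmer Lifr probes gave 0.38 ± 0.15 and 0.27 ± 0.31 at 4OHT 8h, where the brightest gave -0.03 ± 0.13, and none of them was called over all probes.

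**Figure D3:**
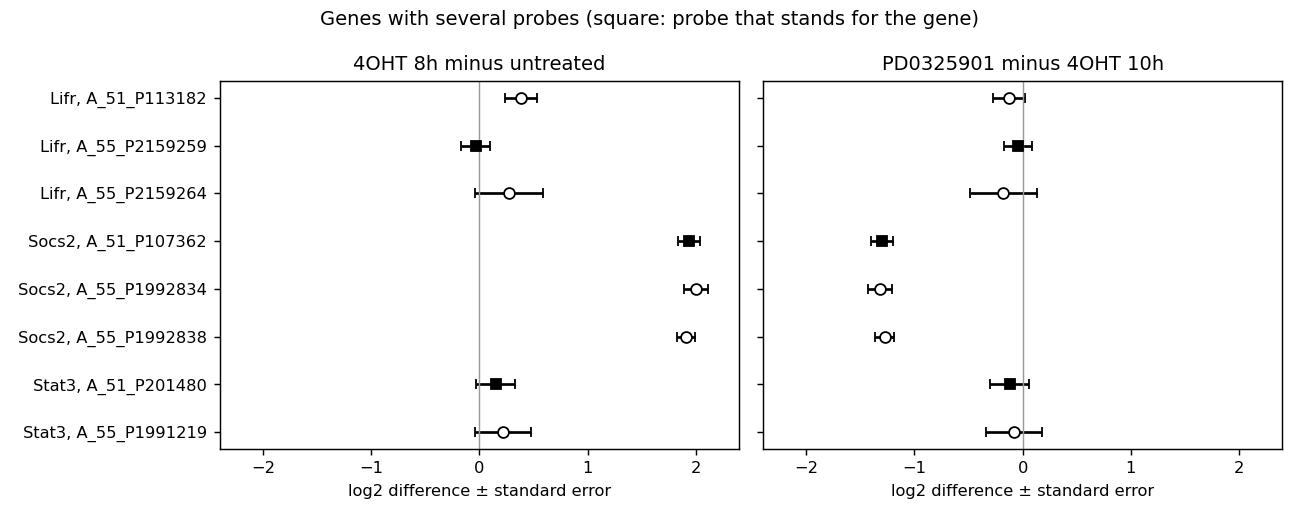
Log2 difference ± standard error (horizontal axis) of each kept probe of Lifr, Socs2 and Stat3 (rows), with a filled square for the probe that stands for the gene and open circles for the others. The 3 Socs2 probes lie together, near 1.94 in the left panel and near -1.30 in the right one.

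Other genes of the pathway were taken as a list of 60, of which 57 were tested. At 4OHT 8h 16 of the 57 rose and 8 fell (16 and 13 with the replicate block), where 10.3% of all genes were called higher and 11.5% lower, with a median difference of 0.09 against -0.04 over all genes. In inhibited cells against 4OHT 10h 3 rose and 14 fell (8 and 19 with the block), where 3.25% of all genes were called higher and 2.87% lower, with a median of -0.05 against -0.04 over all genes. Without 4OHT 10h replicate 2 the total of 17 came down to 7, and without inhibited replicate 1 to 8.

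Of 3 other receptor genes tested, 2 rose at 4OHT 8h. Il6ra, the chain that binds IL-6, rose by 3.05 (adjusted p = 0.000346), and Cntfr, that for ciliary neurotrophic factor, by 1.75 (0.000346). Both fell in inhibited cells against 4OHT 10h, by 0.96 (adjusted p = 0.0253) and 0.55 (0.0252) on the log2 scale. The calls of this fall were lost without any 1 of the 4 arrays compared, at adjusted p of 0.107 to 0.127 for Il6ra and 0.0853 to 0.143 for Cntfr, and that of Cntfr also without either 4OHT 8h replicate (0.0602). Of the 4 ligand genes tested none was called at 4OHT 8h, and Osm, the gene of oncostatin M, had the smallest p (-0.80, adjusted p = 0.0922, but 0.0371 without inhibited replicate 1 or without inhibited replicate 2). At 4OHT 10h Osm was called lower (-1.53, adjusted p = 0.0115), and Cntf, the gene of ciliary neurotrophic factor, higher (0.70, 0.0228). Cntf, and Jak2 among the kinases, were named after their values were seen. Osm was well above background on both arrays only in untreated cells, and on 1 array in each other group, so it passed the filter only through untreated cells, and no weight is put on its differences.

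The JAK kinase genes were not called, 4 of 4 at 4OHT 8h and 4 of 4 in inhibited cells against 4OHT 10h, with the smallest p for Tyk2 at 4OHT 8h (0.15, adjusted p = 0.48) and for Jak2 in inhibited cells (0.22, adjusted p = 0.203). Among 6 other STAT genes, Stat2, which acts in interferon signalling, fell by 0.98 on the log2 scale at 4OHT 8h (adjusted p = 0.00368). Stat4, which acts downstream of IL-12, fell by 0.88, with adjusted p of 0.0153, but 0.0686 if untreated replicate 2 and 0.0653 if 4OHT 8h replicate 1 was left out. Stat2 rose by 0.88 in inhibited cells against 4OHT 10h (0.0138), a call lost without 4OHT 10h replicate 2 (0.0706), inhibited replicate 1 (0.0799) or inhibited replicate 2 (0.0582).

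Among 6 further SOCS family genes Socs5 was called. It rose by 3.33 at 4OHT 8h (adjusted p = 0.000394) and fell by 2.04 on the log2 scale in inhibited cells against 4OHT 10h (0.00413). Of 8 PIAS and phosphatase genes, which restrain JAKs and STATs, Ptpn1 rose by 0.48 (0.0378) and Pias2 fell by 0.41 (0.0271) at 4OHT 8h. Neither call held without untreated replicate 2 (0.134 and 0.0947), 4OHT 8h replicate 1 (0.139 and 0.0642) or 4OHT 8h replicate 2 (0.133 and 0.142), that of Pias2 also not without untreated replicate 1 (0.0983), and that of Ptpn1 not without either 4OHT 10h replicate (0.07). Pim2, the Pim kinase gene outside the set, was not called at 4OHT 8h (0.26, adjusted p = 0.491) or in inhibited cells against 4OHT 10h (-0.08, 0.881).

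Of 25 other LIF and STAT3 targets, 12 rose and 5 fell at 4OHT 8h (12 and 9 with the replicate block; 21.7% of all genes were called), with a median of 0.30. In inhibited cells against 4OHT 10h 2 rose and 11 fell (5 and 14 with the block; 6.12% of all genes were called), with a median of -0.49. Klf4, Tbx3 and Tfcp2l1, named after their values were seen, had lower means with 4OHT and higher means again in inhibited cells. With 2 targets called higher against 4OHT 10h, the rise was not called for all 3. The arrays of Tfcp2l1 gave 4.18 and 3.45 at 4OHT 10h, and 4.90 and 4.19 in inhibited cells. Their mean log2 signals were 5.33, 5.23 and 5.46 in untreated cells, 3.55, 3.24 and 3.82 at 4OHT 10h, and 5.02, 4.64 and 4.54 in inhibited cells. The genes named next had the smallest adjusted p at 4OHT 8h, and all of them rose there. Myc fell by 5.26 on the log2 scale in inhibited cells against 4OHT 10h (adjusted p = 0.00028), Gbx2, a homeobox factor of the naive state, by 4.37 (0.000544) and Noct, a circadian phosphatase, by 3.47 (0.00028). All 3 were also lower than in untreated cells, as Pim1 was, with log2 differences of -2.81, -1.65 and -1.28 in that order (adjusted p = 0.000813, 0.00404 and 0.00241). Tnfrsf12a, the receptor of TWEAK, rose by 2.33 at 4OHT 8h (0.000206) and fell by 0.80 in inhibited cells against 4OHT 10h (0.00922, but 0.0532 without 4OHT 10h replicate 2 and 0.0614 without inhibited replicate 1).

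**Figure D4:**
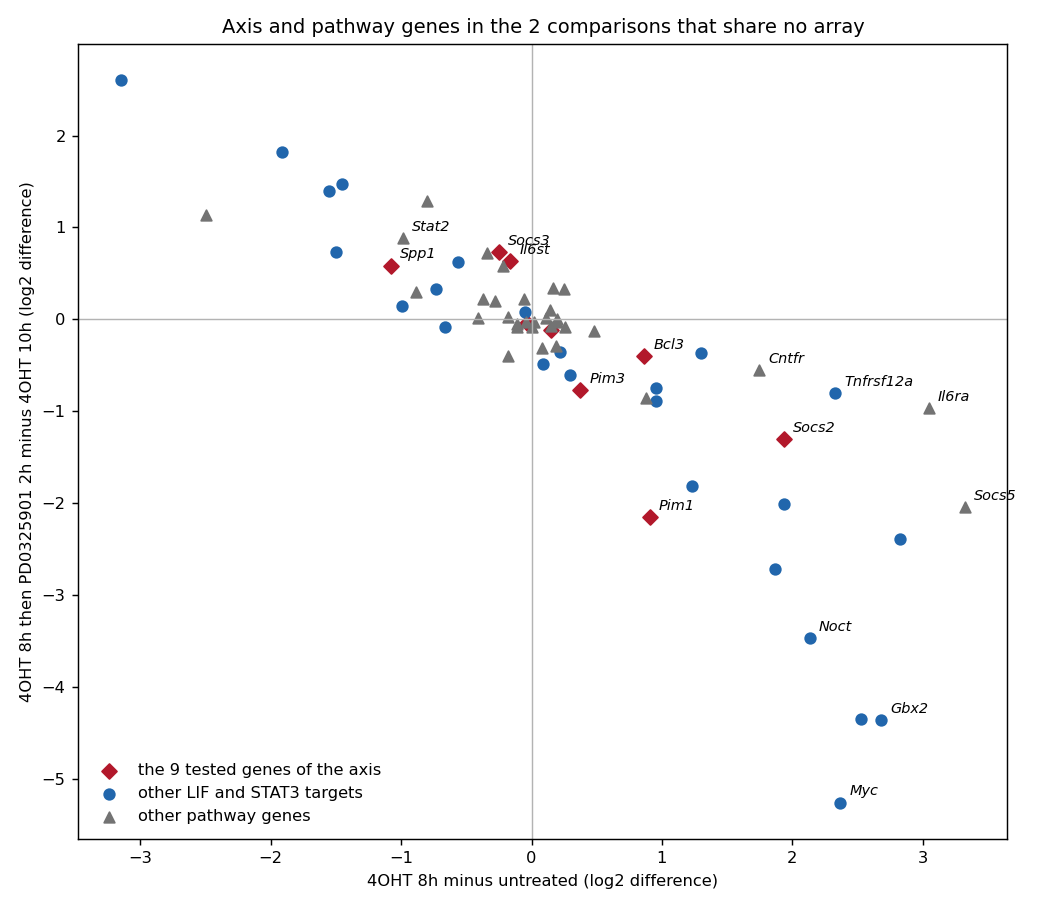
Log2 difference of 4OHT 8h from untreated cells (horizontal axis) and of inhibited cells from 4OHT 10h (vertical axis) for the 9 tested genes of the axis (red diamonds), the 25 other LIF and STAT3 targets (blue circles) and the other pathway genes (grey triangles). Myc lies lowest, at -5.26, and right of 0, while Spp1 lies to the left and above it at -1.08 and 0.58.

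The genes closest in pattern were sought among 14475 other named genes by the root mean square distance between values over the 8 arrays, each minus its mean. For Socs3 they were Epor, the erythropoietin receptor gene (0.059), the G protein gene Gna15 (0.062) and Zfp763 (0.076). For Spp1 they were the potassium channel gene Kcnn2 (0.106), Klk1b8 (0.113), one of a family of near-identical kallikrein genes whose probes may share signal, and Fam174b (0.116). For Stat3, which was nearly level, they were Sipa1 (0.050), Tm9sf3 (0.053) and Plekha8 (0.061).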

How the data were processed

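The deposited processed signal is an intensity that, per the file headers, came from Agilent Feature Extraction 11.0.1.1, and it is not scaled between arrays. The authors' deposited value table has this intensity on a linear scale, uncentred and rounded (largest difference 0.5%). Its column medians were 21.6 to 29.9. The labels name Cy5, and the files hold 1 channel under the name for green.

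Each array was scaled to the 75th percentile of its non-control spots, and log2 values were fitted with limma 3.58.1 (R 4.3.3, the data.table package, version 1.17.8). Files were read in Python 3.11.15 (pandas 2.3.3, numpy 2.4.6), and plots drawn in matplotlib 3.10.9. Outlier spots, 169 to 249 per array, were dropped, and 0 were saturated. After averaging spots by probe, the filter on dim probes asked for a signal well above background on both arrays of any 1 group, which 30336 probes passed. The kept probe with the highest mean stood for a gene, leaving 22693 genes and unnamed features. Tests were two-sided. The fit was also run on simulated data with independent noise on each array, which does not cover the correlation of same-numbered arrays given below. Symbols came from RefSeq accessions through a RefSeq table of GRCm38.p6, and 49.7% of 55681 probes had 1 symbol. The array design names build mm9, so probes have no coordinates here.

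Deviations from group means of same-numbered arrays correlated at 0.29 to 0.36 in all 6 pairs of groups. These arrays share a row of the slide. The replicate number as a block was therefore an alternative, given beside results whose call it changes. Others were quantile normalization, median centring, normexp background correction on median signals (offset 50), no filter, the 2 groups alone, a trended robust prior, the mean of probes, the value table and each array left out. All 10 genes were named, with up to 4 genes of each role list by adjusted p at 4OHT 8h and up to 2 in inhibited cells. Genes of the axis and lists were chosen with earlier results of these data known.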

Additional observations from a re-analysis of the deposited data

How the results depend on the processing

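Of 765 alternative values for 45 differences of the axis genes, 638 kept direction and side of the threshold, 79 lost the call, 17 gained it and 31 changed sign. The cause of these changes was not tested, beyond the fewer arrays of some fits. Median centring moved the median difference of all genes by 0.14 at 4OHT 8h, 0.19 at 4OHT 10h and 0.11 in inhibited cells, each against untreated cells. The replicate block gained the calls given beside Pim3, Bcl3 and Socs3 and ended none among the axis genes. Signal over background limits Lif, and 2 arrays a group limit every difference. For 4OHT 8h against untreated cells, the 3 genes of the axis called became 5 with replicate block, 5 with intensity trend and robust prior. For 4OHT 10h against untreated cells, the 5 genes of the axis called became 3 with no filter on dim probes, 3 with only the 2 groups fitted, 3 to 4 with an array left out. For inhibited against 4OHT 10h cells, the 6 genes of the axis called became 2 with no filter on dim probes, 2 with only the 2 groups fitted, 2 to 5 with an array left out. For inhibited against 4OHT 8h cells, the 4 genes of the axis called became 2 with no filter on dim probes, 1 with only the 2 groups fitted, 2 to 3 with an array left out. For inhibited against untreated cells, the 4 genes of the axis called became 2 with only the 2 groups fitted, 2 to 3 with an array left out. For 4OHT 8h against untreated cells, the 4932 genes called among all became 2303 with no filter on dim probes, 2767 with only the 2 groups fitted, 2269 to 4269 with an array left out. For 4OHT 10h against untreated cells, the 6332 genes called among all became 3306 with no filter on dim probes, 3980 with only the 2 groups fitted, 3170 to 5866 with an array left out. For inhibited against 4OHT 10h cells, the 1389 genes called among all became 333 with no filter on dim probes, 2821 with replicate block, 328 with only the 2 groups fitted, 371 to 959 with an array left out. For inhibited against 4OHT 8h cells, the 1479 genes called among all became 358 with no filter on dim probes, 3184 with replicate block, 328 with only the 2 groups fitted, 391 to 1063 with an array left out. For inhibited against untreated cells, the 3594 genes called among all became 1069 with no filter on dim probes, 6283 with replicate block, 1413 with only the 2 groups fitted, 1192 to 2649 with an array left out. For inhibited against 4OHT 10h cells, the 17 pathway genes called became 9 with no filter on dim probes, 27 with replicate block, 10 with only the 2 groups fitted, 7 to 16 with an array left out. For inhibited against 4OHT 8h cells, the 17 pathway genes called became 7 with no filter on dim probes, 8 with only the 2 groups fitted, 7 to 14 with an array left out. For inhibited against untreated cells, the 15 pathway genes called became 8 with no filter on dim probes, 27 with replicate block, 8 to 12 with an array left out. Uncalled log2 differences that changed sign for 4OHT 8h against untreated cells were as follows. Lifr gave 0.10 with median centring, 0.0017 with normexp background correction, 0.21 with mean of all kept probes, -0.12 to 0.050 with an array left out (reported value -0.034). Stat3 gave -0.015 to 0.32 with an array left out (reported value 0.15). Uncalled log2 differences that changed sign for 4OHT 10h against untreated cells were as follows. Lifr gave -0.061 with quantile normalization, -0.045 to 0.12 with an array left out (reported value 0.040). Il6st gave 0.12 with median centring, -0.18 to 0.034 with an array left out (reported value -0.072). Stat3 gave -0.062 with quantile normalization, -0.11 to 0.21 with an array left out (reported value 0.049). Uncalled log2 differences that changed sign for inhibited against 4OHT 10h cells were as follows. Lifr gave 0.051 with quantile normalization, -0.20 to 0.12 with an array left out (reported value -0.041). Stat3 gave -0.28 to 0.037 with an array left out (reported value -0.12). Tyk2 gave -0.17 to 0.021 with an array left out (reported value -0.073). Pias2 gave -0.062 with median centring, -0.065 with normexp background correction, -0.058 to 0.086 with an array left out (reported value 0.014). Pim2 gave -0.33 to 0.16 with an array left out (reported value -0.083). Uncalled log2 differences that changed sign for inhibited against 4OHT 8h cells were as follows. Lifr gave -0.062 with normexp background correction, -0.24 with mean of all kept probes, -0.12 to 0.19 with an array left out (reported value 0.034). Spp1 gave -0.070 with normexp background correction (reported value 0.053). Uncalled log2 differences that changed sign for inhibited against untreated cells were as follows. Lifr gave 0.11 with median centring, -0.16 to 0.16 with an array left out (reported value -0.00062). Stat3 gave 0.040 with median centring, -0.21 to 0.062 with an array left out (reported value -0.072).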
